A study of Mus musculus with 6 samples.

Results

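The genes described here are 10 markers of tissue macrophages, taken by name from the 24421 genes counted in each library. The tissue was sciatic nerve of the mouse, which carries the axons of the hind limb. They are the growth factor receptor Csf1r, the chemokine receptor Cx3cr1, the complement chains C1qa and C1qb, the phagocyte genes Aif1, Cd68 and Lyz2, and the scavenger and surface receptors Mrc1, Cd163 and Lyve1. RNA came from 3 libraries labelled YAP/TAZ-DBL-cKO, called cKO here, and from 3 libraries labelled YAP/TAZ-WT, called WT. YAP (gene Yap1) and TAZ (gene Wwtr1) are co-activators of transcription under Hippo signalling. The series' title points to myelination by Schwann cells, and the comparison here asks how the macrophage transcripts of the whole nerve differ between the genotypes. The sources used here give neither strain, age and driver of the deletion nor the deleted parts of each gene. The design text speaks of 3 mice a group, but transcripts of Xist (133.9 to 258.0 CPM, counts scaled to a common library size) and of Ddx3y, a gene of the Y chromosome (8.93 to 48.0 CPM), were found together in each library, and the labels do not mention pooling. If a library held the RNA of several mice, its values are those of a pool.

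Macrophages live in the healthy nerve both among the axons, in the endoneurium, and in the connective sheath and around vessels, in the epineurium. They depend on signals through the CSF1 receptor, whose ligands are CSF1 and IL-34. They take up debris, including myelin debris after injury, and are a main source of the complement component C1q. In counts of whole nerve, more macrophages and more of a transcript in each macrophage cannot be told apart.

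Depth was 24651262 to 32003497 gene counts in the cKO libraries and 41270894 to 47044158 in the WT libraries. Yap1 stood at 102.6 to 108.8 CPM in cKO and 120.4 to 123.7 CPM in WT nerves, and Wwtr1 at 337.4 to 372.0 CPM in cKO and 253.8 to 284.2 CPM in WT nerves, so whole-gene counts do not check the labels. WT 3 stood apart from the other WT libraries. Its log2 CPM correlated with theirs at 0.983 and 0.985, against 0.992 between WT 1 and WT 2. Correlations among the cKO libraries ran from 0.984 to 0.992, so values this low were not particular to WT 3. It had 601 CPM of 12 summed markers of dividing cells, against 1122 and 1143 CPM in WT 1 and WT 2. The comparison with and without WT 3 was planned, and the values of the 10 genes are given both ways.

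All 10 macrophage genes were read well in every library, with 188 to 4314 counts per gene and library, and all 10 passed the filter on low counts. Another 28 core macrophage and microglia genes, among them Adgre1 (the F4/80 antigen) and Mertk, were also all measured above the filter. Together the 10 genes made up 562.5 to 602.4 CPM in cKO nerves and 451.0 to 621.4 CPM in WT nerves. Per kilobase of annotated exon the C1q chains and Lyz2 stood highest. In cKO nerves C1qa had 89.6, C1qb 85.8 and Lyz2 80.6 CPM per kilobase, and in WT nerves 68.7, 68.1 and 72.9. Csf1r and Cd68 followed at 16.5 and 16.4 CPM per kilobase in cKO and 14.5 and 16.1 in WT nerves. Cx3cr1, Mrc1, Lyve1 and Aif1 lay between 10.1 and 11.6 CPM per kilobase in cKO nerves and between 7.06 and 11.5 in WT nerves. Cd163 was lowest, at 1.80 CPM per kilobase in cKO and 1.31 in WT nerves. Exon lengths are unions over all annotated transcripts, so neighbours in this order are not clearly ranked.

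None of the 10 genes was called changed between 3 cKO and 3 WT libraries by edgeR at an adjusted p under 0.05, where 10.9% of all 14789 tested genes were called. At an unadjusted p under 0.05 there were 4, C1qa, C1qb, Lyve1 and Aif1, all higher in cKO nerves. The share of all genes at an unadjusted p under 0.05 was not counted, so such numbers have no background here. DESeq2 and limma-voom also called 0 of the 10. With total counts in place of TMM scaling edgeR called 2 higher, C1qa and C1qb, where 8.61% of all genes were called higher. The log2 fold changes ran from -0.07 for Mrc1 to 0.52 for Aif1, with 9 of 10 above 0 and a median of 0.26. Over all tested genes 53.7% were above 0 and the median was 0.02. Without WT 3, edgeR called 5 of the 10 higher and 0 lower, where 7.19% of all genes were called higher and 7.5% lower. At an unadjusted p under 0.05 there were 7. Those 5 were Csf1r, Aif1, C1qa, C1qb and Cd163, and the median log2 fold change was 0.40, beside -0.02 over all genes. That count was 1, C1qa alone, when cKO 3 was left out as well, where 2.68% of all genes were called higher.

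**Figure D1:**
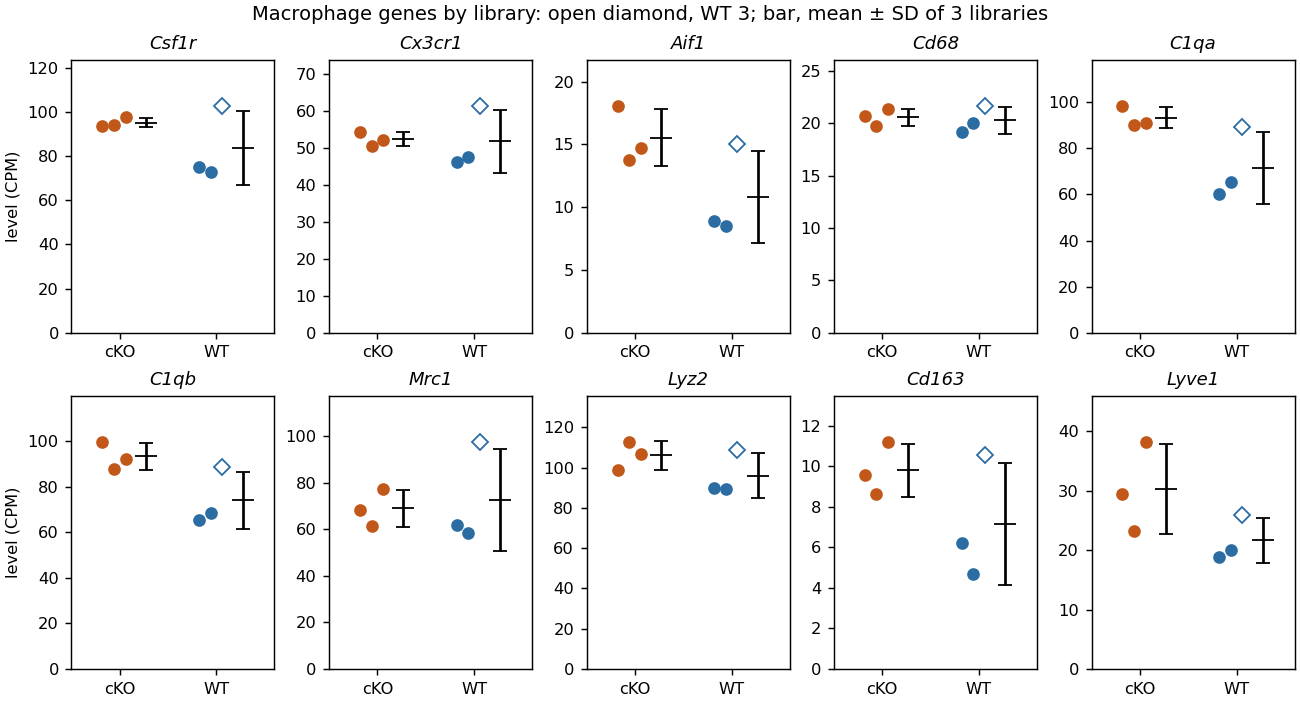
Level of each of the 10 macrophage genes in CPM (scaled counts, linear axes from 0) in the cKO libraries (left) and the WT libraries (right); each point is 1 library, the open diamond is WT 3, and the bar is the mean ± SD of 3 libraries. WT 3 is the highest WT library for all 10 genes, and WT 1 and WT 2 lie below every cKO library for 8 of them (22.0% of all tested genes).

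The WT libraries did not form 1 level. WT 3 was the highest of the WT libraries for 10 of 10 genes, which held for 39.1% of all tested genes. Its level over the mean of WT 1 and WT 2 was 1.11 for Cd68, the smallest, and 1.93 for Cd163, the largest, with a median of 1.36 over the 10 genes and 0.998 over all genes. WT 1 and WT 2 lay below all 3 cKO libraries for 8 of the 10, all but Cd68 and Mrc1, which held for 22.0% of all tested genes. WT 3 lay above all cKO libraries for Csf1r, Cx3cr1, Cd68 and Mrc1, within their range for 5 genes and below it for C1qa. The coefficient of variation was larger among WT than among cKO libraries for 9 of 10 genes, all but Lyve1, and for 53.0% of all tested genes. It was 2.27% to 24.8% in cKO and 6.43% to 42.4% in WT nerves.

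Csf1r, which encodes the receptor that keeps macrophages alive, had 93.4, 94.2 and 97.5 CPM in cKO nerves, against 75.0, 72.9 and 102.8 CPM in WT nerves. The cKO libraries stood close together, above WT 1 and WT 2 and below WT 3. Its difference, as log2, came to 0.19 ± 0.13 (SE, n = 3 per group, edgeR adjusted p = 0.439). Without WT 3 it was 0.34 ± 0.08 and called (edgeR adjusted p = 0.0252), and over 7 other settings without WT 3 the adjusted p ran from 0.00046 to 0.104. Csf1r (mm10 chromosome 18, 61100598 to 61132149, plus strand) shares 873 exon bases with Hmgxb3 on the other strand, and reads there may be missing from its count.

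Cx3cr1, the receptor for fractalkine, marks resident macrophages and microglia (chromosome 9, 119901616 to 120069879, minus strand). It had 54.3, 50.6 and 52.0 CPM in cKO nerves, against 46.1, 47.6 and 61.4 CPM in WT nerves. The groups overlapped, with WT 3 the highest library of all 6. The fitted log2 difference was 0.02 ± 0.12 (edgeR adjusted p = 0.958), and 0.13 ± 0.09 without WT 3 (edgeR adjusted p = 0.342), so Cx3cr1 did not follow Csf1r past the threshold.

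The ligands of both receptors did not pass. Csf1 had 28.0, 28.0 and 31.0 CPM in cKO nerves, against 23.4, 21.8 and 25.0 CPM in WT nerves, without overlap (log2 0.31 ± 0.10, edgeR adjusted p = 0.103). Il34, named after its values were seen, had 37.0 to 40.9 CPM in cKO and 31.3 to 46.2 CPM in WT nerves. Cx3cl1, which encodes fractalkine, was low, at 3.56 to 4.56 CPM in cKO and 2.60 to 2.90 CPM in WT nerves (log2 0.58 ± 0.21, edgeR adjusted p = 0.125). Groups of Csf1 and Cx3cl1 stayed apart with WT 3 included, unlike those of the receptors, and 15.3% of all tested genes also lay apart in this direction.

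C1q, the recognition molecule that starts the classical complement pathway, is built of A, B and C chains from neighbouring genes on chromosome 4. C1qa (136895917 to 136898803, minus strand) had 98.5, 90.1 and 91.1 CPM in cKO nerves, against 60.0, 65.2 and 89.0 CPM in WT nerves. It was the only 1 of the 10 genes whose groups did not overlap, by the narrow step between cKO 2 and WT 3. Over all tested genes 31.1% lay apart in either direction and 15.3% in this one, so 1 of 10 is near or below the background. The step was lost with DESeq2 size factors, while with total counts more of the 10 genes lay apart. The fitted log2 difference was 0.39 ± 0.14 (edgeR adjusted p = 0.126), and 0.55 ± 0.09 without WT 3 (edgeR adjusted p = 0.00662). C1qa was called in all 7 other settings tried without WT 3, at an adjusted p of 7.13e-07 to 0.0376.

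C1qb (136880129 to 136886187, minus strand) had 99.9, 87.9 and 92.4 CPM in cKO nerves, against 65.4, 68.3 and 88.6 CPM in WT nerves. The cKO libraries again stood above WT 1 and WT 2, while WT 3 lay just above cKO 2. The fitted log2 difference was 0.33 ± 0.12 (edgeR adjusted p = 0.128), and 0.46 ± 0.09 without WT 3 (edgeR adjusted p = 0.015, 7.44e-05 to 0.061 over the 7 other settings). C1qc, which encodes the C chain and was not among the 10, had 79.9, 71.0 and 79.0 CPM in cKO nerves, against 55.6, 52.3 and 77.5 CPM in WT nerves. WT 3 again fell within the cKO range and WT 1 and WT 2 below it, with a fitted log2 difference of 0.31 ± 0.15 (edgeR adjusted p = 0.228), and 0.48 ± 0.09 without WT 3 (edgeR adjusted p = 0.0123).

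The stretches upstream of 3 genes are shown because PU.1, an ETS transcription factor of the macrophage lineage encoded by Spi1, binds motifs built around GAGGAA. C1qb and Aif1 were called higher without WT 3 and Mrc1 was not in either fit. Capitals mark GAGGAA or its reverse complement TTCCTC in the 250 bases before each RefSeq start site (build GRCm38.p6), each printed 5′ to 3′ on the strand of its gene. The stretches are chr4:136886201-136886450 on the minus strand for C1qb, chr17:35176053-35176302 on the minus strand for Aif1 and chr2:14229164-14229413 on the plus strand for Mrc1.
C1qb: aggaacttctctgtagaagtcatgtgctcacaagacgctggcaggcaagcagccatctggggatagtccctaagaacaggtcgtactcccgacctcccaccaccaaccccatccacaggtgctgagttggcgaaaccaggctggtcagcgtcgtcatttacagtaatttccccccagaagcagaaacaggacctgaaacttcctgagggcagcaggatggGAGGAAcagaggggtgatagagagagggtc
Aif1: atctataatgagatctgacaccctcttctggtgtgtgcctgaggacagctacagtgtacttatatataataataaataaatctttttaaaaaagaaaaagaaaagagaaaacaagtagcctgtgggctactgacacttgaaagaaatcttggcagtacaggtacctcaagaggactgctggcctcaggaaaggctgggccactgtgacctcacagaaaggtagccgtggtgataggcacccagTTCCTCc
Mrc1: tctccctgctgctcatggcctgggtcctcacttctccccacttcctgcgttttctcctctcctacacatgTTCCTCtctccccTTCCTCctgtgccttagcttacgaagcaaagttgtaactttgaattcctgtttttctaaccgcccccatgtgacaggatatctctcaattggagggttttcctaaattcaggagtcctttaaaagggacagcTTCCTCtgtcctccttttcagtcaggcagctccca
Of the 10 genes, 7 were matched in the promoter table, and 4 of those held the hexamer on either strand, as did 23.3% of 32851 promoter stretches of the same length. C1qb and Aif1 had 1 match each and Mrc1 had 3, so of these 7 the gene with the most matches was not among those called. Cd163, also called higher without WT 3, had 0 matches. Cd68, called in neither fit, had 1, and Cx3cr1 and Lyz2 had 0. A match is a run of letters and not a measured binding site. Spi1 itself, named after its values were seen, had 10.8 to 14.4 CPM in cKO nerves and 10.2 to 10.9 CPM in WT nerves (log2 0.28 ± 0.15, edgeR adjusted p = 0.285).

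Aif1, also known as Iba1, encodes an actin-binding protein of macrophages (chromosome 17, 35170991 to 35176068, minus strand). It had 18.1, 13.8 and 14.7 CPM in cKO nerves, against 8.94, 8.47 and 15.02 CPM in WT nerves. WT 1 and WT 2 lay well below the other 4 libraries, and WT 3 fell among the cKO values. The log2 fold change was the largest of the 10, 0.52 ± 0.23 (edgeR adjusted p = 0.198), and 0.81 ± 0.16 without WT 3 (edgeR adjusted p = 0.0139, 0.000125 to 0.0509 over the 7 other settings).

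Cd68, a lysosomal glycoprotein of phagocytes (chromosome 11, 69664213 to 69666153, minus strand), was the steadiest. It had 20.7, 19.7 and 21.4 CPM in cKO nerves, against 19.1, 20.02 and 21.7 CPM in WT nerves, and the groups overlapped throughout. The fitted log2 difference was 0.02 ± 0.11 (edgeR adjusted p = 0.939), and 0.05 ± 0.11 without WT 3 (edgeR adjusted p = 0.819).

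Lyz2 encodes lysozyme, which macrophages and neutrophils make to break bacterial walls (chromosome 10, 117277331 to 117282321, minus strand). It had 98.5, 112.9 and 106.7 CPM in cKO nerves, against 89.6, 89.5 and 108.7 CPM in WT nerves. Only WT 3 reached the cKO range, and the fitted log2 difference was 0.14 ± 0.10 (edgeR adjusted p = 0.449), or 0.22 ± 0.09 without WT 3 (edgeR adjusted p = 0.13). Lyz2 has a close copy, Lyz1, beside it on chromosome 10, at 13.2 to 20.5 CPM in cKO and 10.7 to 16.9 CPM in WT nerves, and reads may have been split between them. The 11 neutrophil markers measured summed to 32.0 to 45.6 CPM in cKO and 12.95 to 34.5 CPM in WT nerves, and their part in the Lyz2 level was not tested.

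Mrc1, the mannose receptor CD206, is typical of perivascular and sheath macrophages (chromosome 2, 14229392 to 14332057, plus strand). It had 68.2, 61.3 and 77.3 CPM in cKO nerves, against 61.8, 58.3 and 97.6 CPM in WT nerves. WT 3 was far above every other library, and WT 1 lay inside the cKO range. Its log2 fold change of -0.07 ± 0.19 (edgeR adjusted p = 0.874) was above 0 without WT 3 (0.17 ± 0.11, edgeR adjusted p = 0.336), without cKO 2 and with total counts.

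Cd163, the scavenger receptor for haemoglobin and haptoglobin (chromosome 6, 124304656 to 124330527, plus strand), had 9.59, 8.61 and 11.2 CPM in cKO nerves, against 6.21, 4.70 and 10.5 CPM in WT nerves. WT 3 fell within the cKO range and stood at 1.93 times the mean of WT 1 and WT 2. The fitted log2 difference was 0.46 ± 0.28 (edgeR adjusted p = 0.364), and 0.82 ± 0.20 without WT 3 (edgeR adjusted p = 0.0264, 0.002 to 0.114 over the 7 other settings).

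Lyve1, a hyaluronan receptor of perivascular macrophages and of lymphatic endothelium (chromosome 7, 110850607 to 110863239, minus strand), had 29.5, 23.3 and 38.3 CPM in cKO nerves, against 18.8, 20.1 and 26.0 CPM in WT nerves. It was the 1 gene that varied more among cKO than among WT libraries, with cKO 3 the highest. The fitted log2 difference was 0.49 ± 0.19 (edgeR adjusted p = 0.153), and 0.62 ± 0.19 without WT 3 (edgeR adjusted p = 0.0643). The lymphatic transcription factor gene Prox1 was at 0.848 ± 0.226 CPM in cKO and 0.394 ± 0.262 CPM in WT nerves (SD, n = 3 each). The lymphatic chemokine gene Ccl21a had 0 counts in every library. Its symbol had no single match in the gene annotation used here for positions, so that 0 may not be a measured absence. Of 5 lymphatic genes tested, named after their values were seen, Flt4 rose (log2 0.82 ± 0.22, edgeR adjusted p = 0.0449) and Reln fell (log2 -0.67 ± 0.09, edgeR adjusted p = 0.00315). Reln stood far above Prox1, at 133.6 to 155.4 CPM in cKO and 212.5 to 240.5 CPM in WT nerves. Which cells made it was not tested, so its fall cannot be read as a change of lymphatic cells. Mmrn1, which encodes the lymphatic marker multimerin 1, had 1.66, 1.99 and 2.58 CPM in cKO nerves, against 0.195, 0.225 and 2.75 CPM in WT nerves, with WT 3 the highest library (log2 0.98 ± 0.85, edgeR adjusted p = 0.544). Without WT 3 it was called higher (log2 3.26 ± 0.44, edgeR adjusted p = 0.00292). The part of lymphatic cells in the Lyve1 level was not tested.

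**Figure D2:**
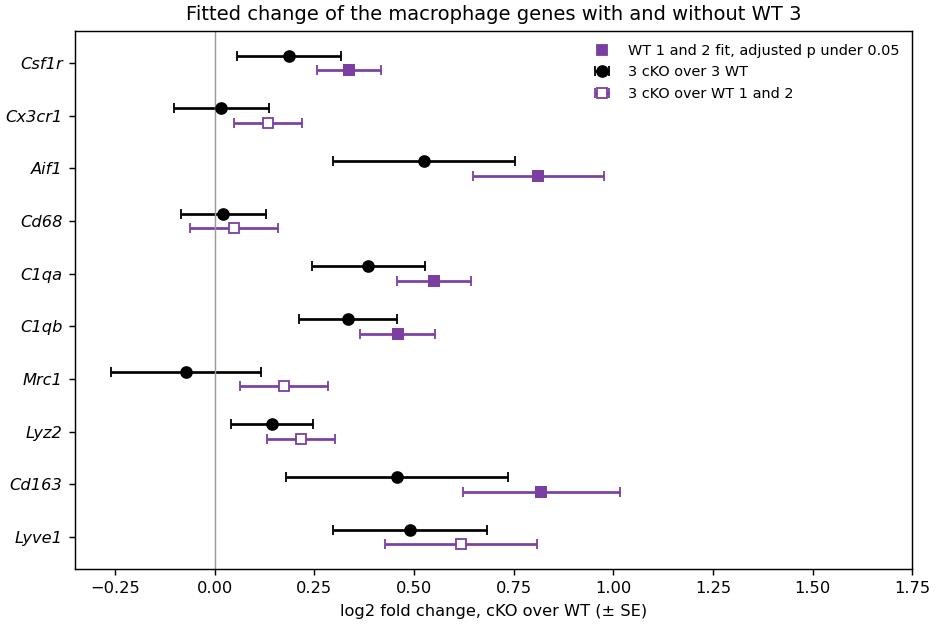
Log2 fold change of each macrophage gene, cKO over WT, with its SE, from the fit on all 6 libraries (black) and from the fit without WT 3 (purple); filled squares passed an edgeR adjusted p of 0.05. Estimates without WT 3 lie to the right for all 10 genes, and 5 passed there against 0 with all libraries.

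A second view needs no scaling between libraries, since each gene is taken as a share of the counts of all 10. It was chosen after the values were seen, carries no test, and shares in 1 library are tied to each other because they add to the whole. C1qa made up 16.7%, 16.02% and 15.1% of these counts in cKO nerves, against 13.3%, 14.3% and 14.3% in WT nerves. C1qb made up 16.9%, 15.6% and 15.3% in cKO nerves, against 14.5%, 15.01% and 14.3% in WT nerves. Both C1q chains thus had a larger share in every cKO library than in any WT library, WT 3 included.

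Aif1 made up 3.06%, 2.45% and 2.44% of these counts in cKO nerves, against 1.98%, 1.86% and 2.42% in WT nerves, so its groups lay apart by a very small step. Cx3cr1 went the other way, with 9.20%, 9.002% and 8.63% in cKO nerves, against 10.2%, 10.5% and 9.89% in WT nerves. All 3 cKO shares of Cx3cr1 lay below all 3 WT shares. The other 6 genes overlapped, and Csf1r stood at 15.8% to 16.8% in cKO and 16.03% to 16.6% in WT nerves. With shares tied to each other, 4 of 10 that lie apart are a description of these libraries, and an exact two-sided permutation test of 3 against 3 could not go below p = 0.1.

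**Figure D3:**
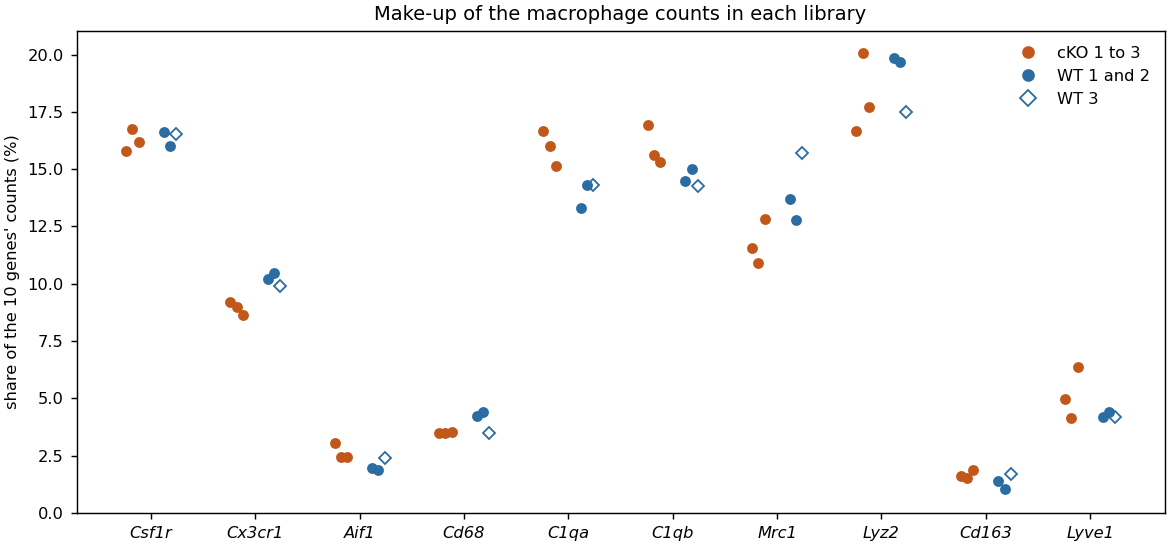
Share of each macrophage gene in the summed counts of the 10 genes (percent, linear axis from 0) in the cKO libraries (left of each pair) and the WT libraries (right); each point is 1 library and the open diamond is WT 3. The shares of C1qa, C1qb and Aif1 are higher and that of Cx3cr1 is lower in all 3 cKO libraries than in all 3 WT libraries.

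Related genes were followed in 8 lists with 113 genes, of which 109 were tested. The lists hold macrophage and monocyte genes, but also ligands, chemokines, complement genes and lysosome and lipid genes. Many of these are not particular to macrophages, so the counts below are not counts of macrophage genes alone. With all 6 libraries, 9 of the 109 rose (8.26%, where 4.77% of all genes were called higher) and 2 fell (where 6.17% of all genes were called lower), with a median log2 fold change of 0.23. Without WT 3, 29 of 110 rose (26.4%, against 7.19% of all genes) and 2 fell, with a median of 0.40. Of the 9, 7 were called in both fits. The count of 9 was 5 without cKO 1 or cKO 2 and 1 without cKO 3, WT 1 or WT 2, and that gene was Timd4 each time.

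**Figure D4:**
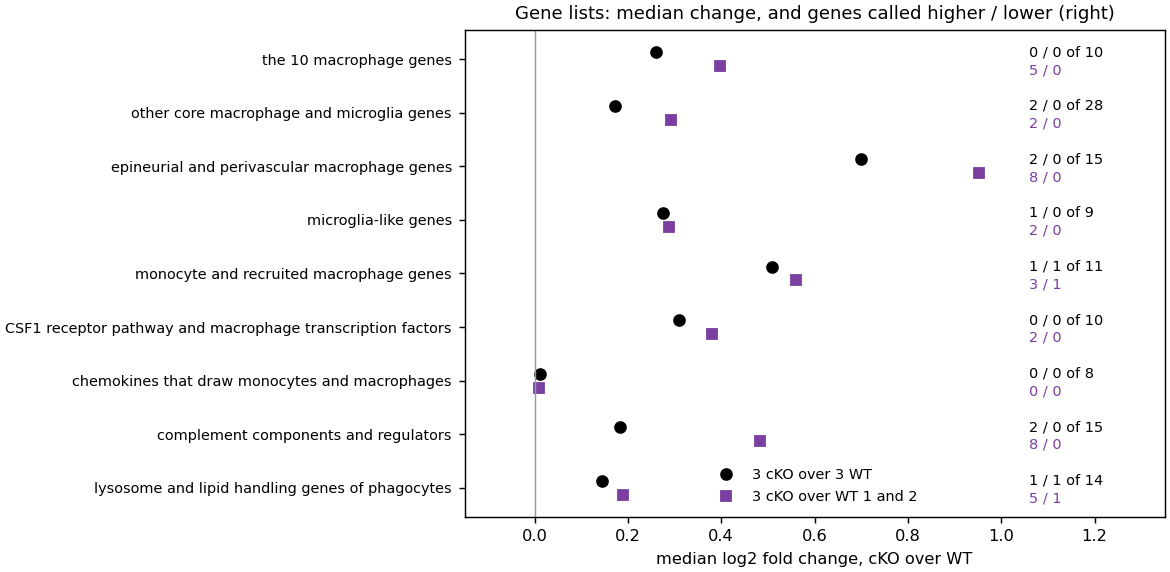
Median log2 fold change, cKO over WT, of the 10 macrophage genes and of 8 lists of related genes, with all libraries (black circles) and without WT 3 (purple squares); the numbers at the right give genes called higher and lower, with the number tested for all libraries. The list of epineurial and perivascular macrophage genes has the highest median, 0.70, and 0.95 without WT 3.

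The list of epineurial and perivascular macrophage genes had 2 of 15 called higher and 0 lower, with all 15 log2 fold changes above 0 and a median of 0.70. Timd4, a phosphatidylserine receptor of long-lived resident macrophages, had 4.61, 4.401 and 3.89 CPM in cKO nerves, against 1.67, 1.57 and 1.31 CPM in WT nerves. It rose 2.83-fold (log2 1.5 ± 0.23, edgeR adjusted p = 0.00478), with WT 3 the lowest library, and kept its call in each of the 6 fits with a library left out (edgeR adjusted p = 0.00845 to 0.0261). Fcna, which encodes the lectin ficolin A, rose to 21.9, 14.4 and 20.8 CPM in cKO nerves, against 11.2, 11.4 and 12.3 CPM in WT nerves (log2 0.71 ± 0.17, edgeR adjusted p = 0.0277). Leaving out cKO 1, cKO 3, WT 1 or WT 2 ended its call. Retnla, a secreted product of alternatively activated macrophages, was low, at 0.452 to 1.13 CPM in cKO and 0.025 to 0.302 CPM in WT nerves. It had 15, 26 and 36 counts in cKO libraries, against 10, 1 and 12 in WT libraries, and did not pass (edgeR adjusted p = 0.0782). Without WT 3, 8 of the 15 were called higher, among them the lectin genes Clec10a, Mgl2 and Cd209f, the folate receptor gene Folr2 and the reductase gene Cbr2, named after their values were seen. Cd209f, for example, had 4.07, 4.52 and 4.93 CPM in cKO nerves, against 0.757, 1.15 and 3.43 CPM in WT nerves, and it is WT 3 that narrows the step.

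Of 28 other core macrophage and microglia genes, 2 rose and 0 fell, with a median log2 fold change of 0.17. Ctss, the lysosomal protease cathepsin S, had 58.4, 52.6 and 58.5 CPM in cKO nerves, against 40.0, 43.5 and 46.0 CPM in WT nerves (log2 0.39 ± 0.09, edgeR adjusted p = 0.0272). Ptprc, the CD45 antigen of all white blood cells, had 9.77, 11.3 and 12.8 CPM in cKO nerves, against 6.56, 8.05 and 7.66 CPM in WT nerves (log2 0.60 ± 0.16, edgeR adjusted p = 0.0459). Both kept WT 3 below the cKO range, but Ctss lost its call without cKO 1, cKO 3, WT 1 or WT 2, and Ptprc lost it without any library but cKO 1. Itgam, the CD11b integrin chain, stood at 9.82 to 12.03 CPM in cKO and 7.40 to 7.80 CPM in WT nerves and did not pass (log2 0.51 ± 0.15, edgeR adjusted p = 0.0597). Adgre1 and the lipid receptor gene Trem2, named after their values were seen, had log2 fold changes of -0.11 ± 0.11 and -0.08 ± 0.16 and did not pass.

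Among 9 tested genes known from brain microglia, Tmem119 rose to 46.6, 39.8 and 42.8 CPM in cKO nerves, against 30.5, 27 and 34.5 CPM in WT nerves (log2 0.49 ± 0.12, edgeR adjusted p = 0.0268). The call ended when cKO 1, cKO 3, WT 1 or WT 2 was left out. The purinergic receptor gene P2ry12 had 19.6 to 22.2 CPM in cKO and 14.2 to 19.9 CPM in WT nerves and did not pass (edgeR adjusted p = 0.145), but was called without WT 3 (log2 0.55 ± 0.12, edgeR adjusted p = 0.0189); 9 of its exon bases overlap Med12l on the other strand. Olfml3 did not pass (edgeR adjusted p = 0.136). Of 11 tested genes of monocytes and recruited macrophages, Vcan rose and Gpnmb fell. Vcan, a matrix proteoglycan that fibroblasts also make, had 113.9 to 150.6 CPM in cKO and 82.2 to 105.1 CPM in WT nerves. Gpnmb, a glycoprotein of lipid-laden phagocytes, had 1.15, 1.21 and 0.974 CPM in cKO nerves, against 2.60, 4.30 and 2.12 CPM in WT nerves (log2 -1.44 ± 0.34, edgeR adjusted p = 0.0265). Leaving out any cKO library or WT 2 ended its call, and that of Vcan ended without cKO 1, cKO 3, WT 1 or WT 2. Plac8 (log2 0.90 ± 0.25, edgeR adjusted p = 0.0545) did not pass, but was called without WT 3 (log2 1.17 ± 0.22, edgeR adjusted p = 0.01). Without WT 3, 2 of the core genes, 2 of the microglia genes and 3 of the monocyte genes were called higher, and 1 of the monocyte genes lower.

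Of 10 genes of the CSF1 receptor pathway and of macrophage transcription factors, 0 were called by edgeR with all libraries (3 at an unadjusted p under 0.05, 2 by DESeq2 and 0 by limma-voom), with all 10 log2 fold changes above 0 and a median of 0.31. Irf8 (log2 0.57 ± 0.16, edgeR adjusted p = 0.0552) and Cebpa (log2 0.61 ± 0.20, edgeR adjusted p = 0.0855) came closest, and both were called without WT 3. Of 8 tested chemokines and related signals that draw monocytes, edgeR called 0 (1 at an unadjusted p under 0.05), as did DESeq2 and limma-voom, and the median was 0.01. Among them Ccl3 (log2 -1.02 ± 0.49) and Tgfb1 (log2 0.20 ± 0.13) did not pass.

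Complement genes beyond C1qa and C1qb had 2 of 15 called higher and 0 lower, and 8 higher without WT 3. C3, the central component, had 5.49, 16.2 and 9.58 CPM in cKO nerves, against 1.97, 2.20 and 5.22 CPM in WT nerves (log2 1.73 ± 0.46, edgeR adjusted p = 0.0448). Cfp, which encodes properdin, the stabiliser of the alternative pathway, had 14.5, 15.6 and 13.98 CPM in cKO nerves, against 10.2, 10.02 and 11.3 CPM in WT nerves (log2 0.48 ± 0.13, edgeR adjusted p = 0.0401). C3 lost its call without cKO 2, cKO 3, WT 1 or WT 2, and Cfp lost its call without any library but WT 3. C4b (log2 1.0 ± 0.32, edgeR adjusted p = 0.0875) did not pass, but was called without WT 3 (log2 1.29 ± 0.30, edgeR adjusted p = 0.0235). Of 14 lysosome and lipid handling genes of phagocytes, which many other cells also express, Plin2 rose and Lipa fell. Lipa, the lysosomal lipase, had 55.9, 63.1 and 66.7 CPM in cKO nerves, against 82.3, 87.2 and 90.6 CPM in WT nerves (log2 -0.49 ± 0.09, edgeR adjusted p = 0.0113), and kept its call whichever of the 6 libraries was left out. Plin2, which coats lipid droplets, rose (log2 0.32 ± 0.08, edgeR adjusted p = 0.0416), a call that none of those 6 fits kept, and Fabp5 did not pass (edgeR adjusted p = 0.066).

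Markers of other cells moved with WT 3 and with the genotypes. The 8 adipocyte markers, such as Fabp4 and Cfd, summed to 320.4 to 476.6 CPM in cKO nerves, against 96.1, 92.4 and 484.8 CPM in WT 1, 2 and 3. The 8 markers of blood endothelium, such as Cdh5 and Pecam1, also stood higher in WT 3 than in the other WT libraries, with 420.7 to 490.2 CPM in cKO nerves, against 321.8, 303.5 and 472.2 CPM in WT 1, 2 and 3. With all libraries, edgeR, DESeq2 and limma-voom each called 0 of 7 tested adipocyte markers (0 at an unadjusted p under 0.05) and 0 of 8 endothelial markers (2 unadjusted). Without WT 3 edgeR called all 7 of those adipocyte markers and 5 of 8 endothelial markers higher. Ucp1, which did not pass the filter with all 6 libraries, was also called higher there (log2 4.96 ± 1.21, edgeR adjusted p = 0.0279). Skeletal muscle markers separated the genotypes, at 4492 to 9709 CPM in cKO and 449.0 to 1717 CPM in WT nerves, with 11 of 12 called higher, and summed lymphocyte markers stood at 13.3 to 23.6 CPM in cKO and 4.35 to 5.65 CPM in WT nerves, with 4 of 7 called higher. The part of these tissues in the macrophage values was not tested. In an edgeR fit that also held the summed muscle level, 5 of the 10 macrophage genes had log2 fold changes above 0 and 0 were called (0 at an unadjusted p under 0.05), where 0.426% of all genes were called. As muscle level separated the genotypes, that fit cannot tell muscle from genotype.

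**Figure D5:**
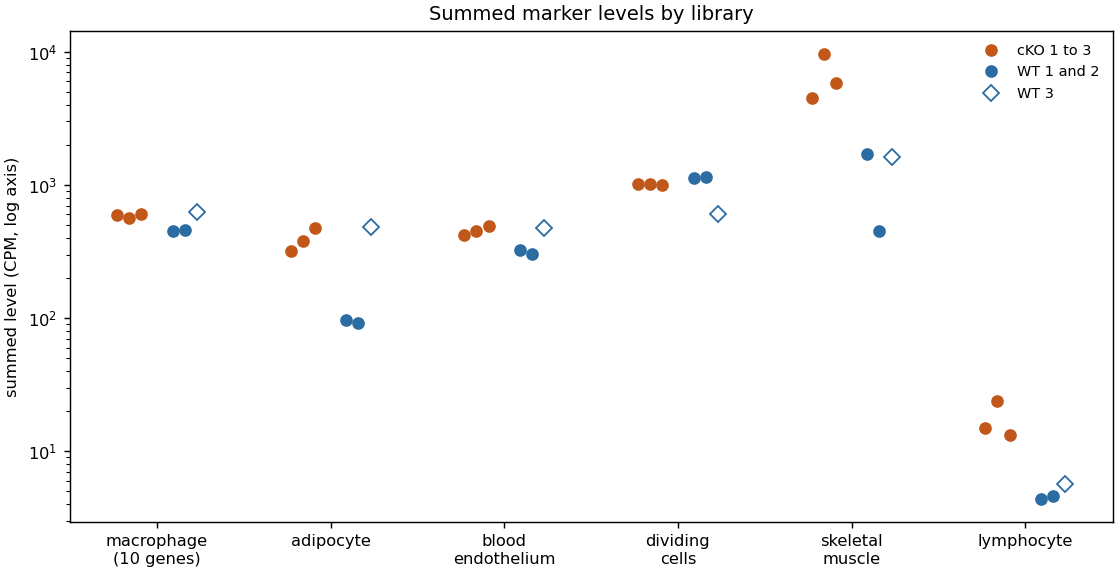
Summed level of marker genes in CPM (scaled counts, log axis) in the cKO libraries (left of each pair) and the WT libraries (right); each point is 1 library and the open diamond is WT 3. WT 3 lies with the cKO libraries for macrophage, adipocyte and endothelial markers, lowest for markers of dividing cells, and with WT 1 and WT 2 for lymphocyte markers.

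Among 10309 genes whose log2 CPM averaged 3 or more, those whose profile over the 6 libraries lay nearest to the mean profile of the 10 macrophage genes were Gja1, Adamtsl1, Plxdc2, C1qc and Irf2bp2. Their root mean square difference from that mean was 0.0293 to 0.0499 on the log2 scale, while that of the 10 genes themselves was 0.0551 for Csf1r, the nearest, to 0.226 for Cd163, the farthest. C1qc was thus the 1 known macrophage gene among the 5, and Gja1 encodes connexin 43, a gap junction protein of many cell types.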

How the data were processed

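The authors deposited 1 table for each of 6 libraries, with whole-number read counts by gene symbol and no normalization. TopHat2 2.0.13, HTSeq and the build mm10 are named in the submitters' processing notes, and the sources used here give neither annotation nor strand setting. HTSeq's closing lines were left out of library sizes (reads of no gene were 12.1% to 14.3% of a file). The 10 genes, the 20 companion lists and 1 later list (dividing cells) were chosen with earlier results of these data known.

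The test was edgeR 4.0.16 (R 4.3.3), a quasi-likelihood F test on group after filterByExpr (minimum count of 10) and TMM scaling, adjusted by Benjamini-Hochberg over all 14789 genes and called at 0.05. CPM are TMM-scaled, values are mean ± SD, and log2 fold changes are cKO over WT. SE is the log2 fold change over the root of F. The pipeline was tested on simulated data. Alternatives used DESeq2 1.42.0, limma 3.58.1, other scalings and filters, and left-out libraries. P-values set the difference between groups against the spread between these libraries. If a library was a pool, that spread is between pools and not between mice. Positions are GENCODE M21 (GRCm38). Up to 3 genes of a macrophage list, by p, were named, as was every called gene of a list with 5 or fewer. Libraries of a group differed beyond counting noise (chi-square per gene of at least 13.4), so none was taken for a copy.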

Additional observations from a re-analysis of the deposited data

How the results depend on the processing

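None of the 10 macrophage genes was called lower in any setting run. The count called higher, 0 with all libraries, was 2 with total counts (C1qa and C1qb), 0 to 5 in fits leaving out 1 library, the 5 without WT 3, and 0 in the other 8 settings. Without WT 3 it was 5, and 1 to 7 when a cKO library was also left out, the 1 without cKO 3. In those fits with a cKO library also left out, 2.68% to 10.7% of all genes were called higher, and 8.61% with total counts. The median over all genes was 0.15 with total counts, against 0.02 with TMM. Genes with groups apart numbered 1, against 7 with total counts, 0 with DESeq2 size factors and 0 to 8 with 1 library left out. Of all tested genes, 15.3% lay apart and higher in cKO with all libraries, and 22.0% without WT 3. That share was not counted in the other settings, so their numbers have no background. Log2 fold changes turned sign for Csf1r (-0.10), Cx3cr1 (-0.11), Lyz2 (-0.094) and Cd163 (-0.25) with the muscle covariate. The median SE of the 10 genes was 0.28 in that fit, against 0.14 in the main fit. Muscle level and genotype went together in these libraries, so that fit cannot tell them apart. Mrc1 turned with total counts (0.062). With 1 library left out the values ran from -0.093 to 0.13 for Cx3cr1, from -0.052 to 0.050 for Cd68 and from -0.21 to 0.17 for Mrc1. The cause was not tested. Companion genes called higher, 9, were 21 with total counts and with DESeq2, 0 with the muscle covariate and 1 to 29 with 1 library left out. Those called lower, 2, were 4 with DESeq2, 1 with limma-voom, 1 with the replicate block, 0 with the muscle covariate and 1 to 2 with 1 library left out. All genes called higher, 706, were 1273 with total counts, 461 with the replicate block, 5 with the muscle covariate and 276 to 1075 with 1 library left out. All called lower, 912, were 606 with total counts, 58 with the muscle covariate and 459 to 1120 with 1 library left out. Deviations of same-numbered libraries from their group means correlated at -0.25, -0.13 and 0.08. With 3 libraries per group, such values cannot decide whether the numbers pair the libraries. The replicate block called 0 of the 10 genes. The 10 genes had at least 188 counts in each library, and the share of counting error in their spread was not tested.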
